A study of Mus musculus with 16 samples.

Results

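Expression of 10 genes of glycolysis was followed across 16 mouse arrays that compare ways of reading very small amounts of brain RNA. The genes were Hk1, Hk2, Pfkfb4, Aldoa, Gapdh, Pgk1, Eno1, Eno2, Pkm (named Pkm2 on the arrays) and Ldha, taken as every spot that carries one of these names. They account for 10 of 18884 named genes, 11 of 24109 gene probes and 267 of 25344 spots. Of these spots 257 are Gapdh, Eno1 has 2 probes, and each of the other genes has 1 probe printed once.

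Glycolysis splits glucose into pyruvate in the cytosol and yields ATP and NADH on the way. Hexokinases trap glucose in the cell as glucose 6-phosphate, aldolase cuts the sugar, GAPDH and phosphoglycerate kinase carry out the steps around the first return of ATP, and enolase and pyruvate kinase complete the path. Lactate dehydrogenase turns pyruvate into lactate and regenerates NAD+. In brain, most of the energy for synaptic signalling comes from glucose, and several steps have isoforms that differ between neurons, glia and dividing cells.

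Each array received 1 Cy5-labelled sample, read in the red channel of the scanner. The 3 control arrays carried 15 µg of total RNA from wild-type forebrain of adult female B6.C3Sn mice, labelled without amplification by random-hexamer reverse transcription with Cy5-dUTP. The 3 microfluidic arrays and the 3 conventional arrays started from 10 pg of RNA of that same kind. It was reverse-transcribed for 20 min, in a rotary mixer of 7 nL in the microfluidic group and in 10 µL in a tube in the conventional group. All 6 products went through 40 cycles of template-switching PCR, in which reverse transcription starts at the poly(A) tail and the same primer site is added at both ends of the cDNA. The 4 single-cell arrays carried individual cells dissociated from the caudal ganglionic eminence (CGE, an embryonic source of cortical interneurons) of OF1 mice at embryonic day 14, with 25 min in the mixer, 40 cycles and Klenow labelling of the product. The 3 explant arrays carried 5 µg of unamplified RNA of wild-type OF1 embryos of day 14, labelled through aminoallyl-dUTP. The labels call that tissue CGE, while the extraction text names the telencephalon. No label gives the number of animals behind any group, so p-values measure the spread between arrays, which may be technical.

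The primers that define the amplified libraries are shown because only a cDNA carrying the site in capitals at its ends was copied.

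5′ PCR primer: AAGCAGTGGTATCAACGCAGAGT

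Template-switching primer: AAGCAGTGGTATCAACGCAGAGTacgcggg

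Both are written 5′ to 3′, and the capitals mark the 23 bases they share. The unamplified control and explant RNA was primed with random hexamers instead, so that the 2 kinds of library sample a transcript differently.

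Values are net intensities, the foreground median of a spot minus its local background median, in arbitrary units. A spot counts as above background where its foreground exceeds the background by 2 SD of the background, and readings stop at the upper limit of the scanner (saturated). The share of gene probes above background was 64.7% to 69.3% on control arrays, 37.9% to 54.0% on microfluidic, 26.5% to 52.5% on single-cell, 14.8% to 29.0% on explant and 3.25% to 42.6% on conventional arrays. The upper conventional value is conventional 1, whose file lacks a background SD and was judged against blank spots. Conventional 2 and 3, judged by their SD, stood at 3.25% and 5.76%. A reading on those arrays can therefore be brighter than on conventional 1 and yet not count as above background. Each scan session held 1 group only, the explant arrays came from another print series, and the conventional files carry no session, so that session and group cannot be told apart. All 6 ganglionic eminence markers examined were above background on every explant array, and 5 of the 6 on every control array of adult tissue. In the cells the neuronal markers Tubb3 and Dcx were above background in 4 of 4, as was Dlx2, while the other ganglionic eminence markers were above it in 1 or 2 cells (3 of 4 cells had a usable Dlx1 or Dlx5 spot), and none of 4 microglial markers was above background in any cell where measured.

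The 257 Gapdh spots show how far spots of a single gene differ on an array. The reading at the 75th percentile of these spots was 2.05 to 2.24 times that at the 25th on explant arrays, 3.57 to 6.61 times on conventional, 3.61 to 10.8 times on single-cell and 7.44 to 8.22 times on microfluidic arrays. On control arrays the ratio was 1.03 to 1.32, with 68.4% to 73.8% of the spots saturated. The order of the spots was shared to differing degrees: Spearman's rho over spots was 0.81 to 0.84 between microfluidic arrays, 0.59 to 0.87 between explant arrays and 0.69 to 0.80 among cells 1 to 3, but 0.26 to 0.55 between conventional arrays and as low as 0.16 in pairs with cell 4. The 48 print blocks took up 64.8% to 71.7% of the rank variance on microfluidic arrays and 20.9% to 65.2% on conventional arrays, against 18.4% if blocks did not differ. Spots share an array, so these figures are descriptions. The other 9 genes rest on a spot each per probe, whose place on the array is the same in all groups.

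Hexokinases catalyse the first step. Hk1, the form bound to mitochondria in most brain cells, read 63952, 61980 and 57686 on the control arrays. The microfluidic readings were 43948.5, 9839.5 and 15971.5, and the conventional readings 304.5, -268.5 and 65, of which only the first was above background. The explant arrays read 7312, 2630 and 7197, the second of them not above background. Every control array was brighter than every array of these 3 groups, and the conventional arrays were the dimmest. The 4 cells read 11938.5, 30773, 3581 and 57718.5, a range that takes in the microfluidic values and overlaps with the explant values.

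Hk2, the inducible hexokinase of muscle and of growing cells, followed another order. It read 2565, 1638 and 1580 on control arrays, of which only the first was above background, and 136, -422 and 269 on explant arrays, none above background. The microfluidic arrays read 48786, 64731 and 60363. The 4 cells read 64274, 64459, 64527.5 and 64465, all saturated. All 7 libraries made in the mixer were thus bright for Hk2, and unamplified RNA of the adult and of the embryo was dim. The conventional arrays, amplified for the same number of cycles from the tube reaction, read 116.5, 384.5 and 1399.5, none above background.

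Pfkfb4 belongs to the bifunctional enzymes that make and break fructose 2,6-bisphosphate, the activator of phosphofructokinase. It was above background in the conventional group alone, with readings of 3382.5, 10345 and 3089. The control arrays read 856.5, 805.5 and 824, none above background. In the other groups it was not above background wherever measured, at 231 on microfluidic 1, at 254 and 994 on explant 1 and 3, and at 422.5, 255.5 and 115.5 in cells 1, 3 and 4. The spot was marked bad on the remaining 4 arrays, where it read from -167.5 to 395.

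Aldoa, the main aldolase of muscle and brain, was saturated on all control arrays, at 64190, 64357 and 64243. The explant arrays read 10705, 7792.5 and 8508. On the microfluidic arrays only the first spot, at 25583, was usable; those of microfluidic 2 and 3 were marked bad, at 30337 and 46165. The cells read 36230, 64454.5, 17344.5 and 8410. The conventional arrays read 552, 372 and 917.5, with only the first above background, and were the dimmest group.

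Gapdh, which oxidises glyceraldehyde 3-phosphate, read 64169, 64255.5 and 64187 on the control arrays as the median of its spots, all saturated. The explant medians were 16553.5, 12447 and 12030, and the microfluidic medians 12419.5, 8199.25 and 27397.25. The cells gave 30730.25, 56155.5, 10246 and 4485, cell 2 being the brightest and cell 4 the dimmest. The conventional medians of 1069.5, 374.5 and 1975 were the lowest. Only the first was above background, by the blank-spot limit used for that array alone, although the third was brighter.

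Pgk1, an X-linked gene whose enzyme returns the first ATP, read 12134.5, 13717.5 and 12145 on control arrays. The explant arrays read 6586, 6184.5 and 6657, all above background. The microfluidic arrays read 1073.5, 526 and 805, the cells 570.5, 453, 1041 and 506, and the conventional arrays 178, 207.5 and 56.5. None of these 10 amplified libraries was above background for Pgk1, whereas all 6 unamplified ones were.

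Enolases carry out the step before pyruvate kinase. Eno1, the widespread form, was saturated on the control arrays at 64109, 64286 and 64256.5, and read 19545, 15782 and 12998.5 on the explant arrays. The microfluidic arrays were far apart, at 64610 (saturated), 744.5 (not above background) and 3597, while the cells lay between 2523.5 and 6907. The conventional arrays read 307, -71.5 and 267, the first alone above background. A second Eno1 probe, designed on another transcript, was not above background on any of the 16 arrays and is given no further values.

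Eno2, the neuronal enolase, read 22009, 12801.5 and 18341.5 on control arrays. The explant arrays read 744.5, -534.5 and 971, none above background, whereas the 4 cells read 8495, 6287, 7195.5 and 5863, all above background. On the microfluidic arrays 1 spot was usable, at 6566 and not above background. Those of microfluidic 2 and 3 were marked bad, at 2992 and 9099. The conventional arrays read 793, -148.5 and 948.5, with the first above background.

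Pkm, pyruvate kinase of muscle and brain, read 64307, 64389 and 48099.5 on control arrays, the first 2 saturated, and 19085.5, 15856 and 14332 on explant arrays. The microfluidic arrays read 166, -61 and 39, and cells 1, 3 and 4 read 143, 161 and 453, none above background. The spot of cell 2 was marked bad, at 497.5. In the conventional group the first array read 4695, above background, and the others -59 and -71.

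Ldha, the lactate dehydrogenase subunit that prevails in glycolytic tissue, was bright in nearly every library. The control arrays read 64288.5, 64379.5 and 64320, and the microfluidic arrays 64748, 64698 and 64629, all saturated. The explant arrays read 21373, 13489 and 48808.5, and the cells 64305, 64527, 60938 and 3335.5, the first 2 saturated and cell 4 far dimmer. The conventional arrays read 18692, 1073 and 13928.5, of which the second was not above background.

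**Figure D1:**
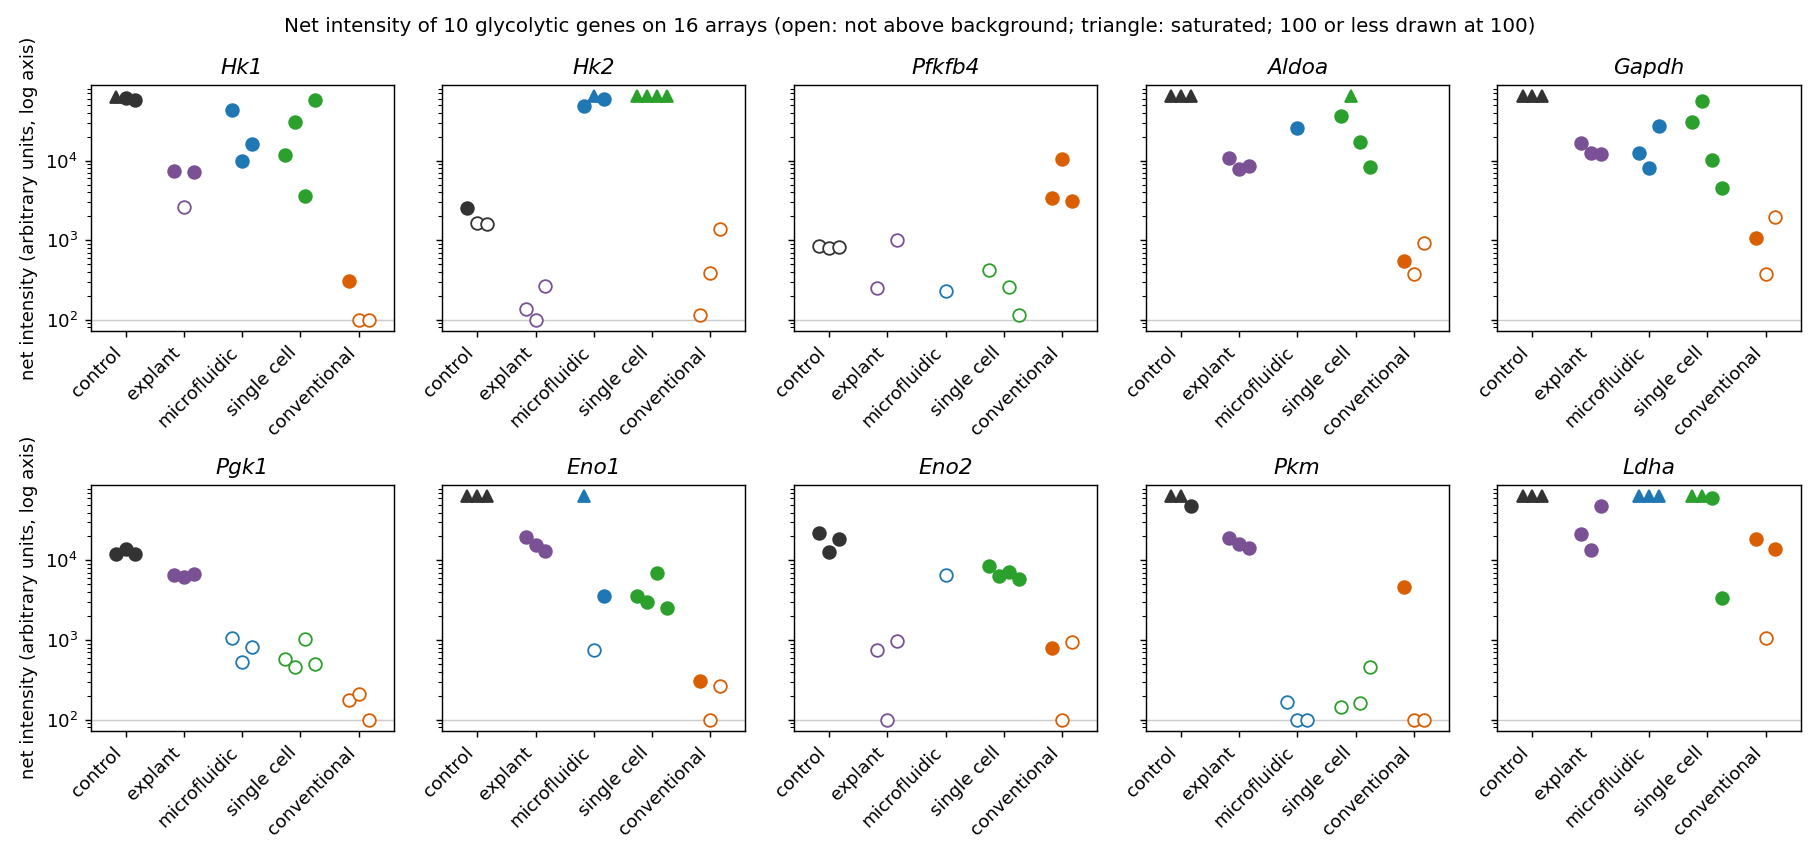
Net intensity of the 10 genes (log axis, arbitrary units; values of 100 or less drawn at 100) by array, in the order of the pathway, with 3 or 4 arrays a group and spots marked bad left out; open circles are not above background, triangles are saturated. Hk2 is bright only in the libraries made in the mixer, Pfkfb4 only in the conventional group, and Pkm and Pgk1 only in unamplified RNA apart from Pkm on conventional 1.

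Counted over genes, 8 of the 10 were above background on all control arrays, 6 on all explant arrays, 7 in all 4 cells, 4 on all microfluidic arrays and 1, Pfkfb4, on all conventional arrays. The 3 that were above background in no cell where measured were Pkm, Pgk1 and Pfkfb4. A spot marked bad counted as not above background here. Aldoa, Eno2 and Pfkfb4, with such spots on microfluidic 2 and 3, could therefore not count for all microfluidic arrays. The conventional count rests on the limit used, being 4 where blank spots set the limit on every array and 0 at 3 background SD. Under the other limits tried, the count was 8 to 10 for control, 6 to 7 for explant, 5 to 8 for the cells and 4 to 6 for microfluidic arrays. The shares of all gene probes given earlier are per array, a looser measure than these counts, so the counts have no matching share beside them.

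For the comparisons, intensities were background-corrected, quantile-normalized over the 16 arrays and taken to log2, and pairs of groups were compared with limma (two-sided, Benjamini-Hochberg over all probes tested, threshold 0.05). Normalization gives every array the same distribution, so a difference is relative to all probes of the arrays. Where the brighter group was saturated on all its arrays, or the dimmer group was not above background on some of its arrays, the fold is a bound ("at least"), with each such dim value set no lower than the lowest reading above background on that array. Differences in parentheses are as fitted, with dim values as they are, and do not measure the size of a change where a bound is given.

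The first comparison asks how 10 pg of RNA read through the mixer represents unamplified RNA. Of 9 glycolytic genes tested, 5 passed as lower (Pkm, Gapdh, Pgk1, Aldoa and Hk1) and Hk2 passed as higher. Among all 15460 probes tested, 59.1% passed, 35.1% as lower and 23.9% as higher, so calls were common. As fitted over these tested sets, the median difference on the log2 scale was -1.79 for the 9 genes and -0.43 for all probes. The former is the value of Aldoa, which had 1 usable microfluidic spot against saturated control readings. Of the 9 genes, 8 were above background on all control arrays and 4 on all microfluidic arrays, so most entered through the brighter control group.

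Pkm was at least 32.9-fold lower (fitted log2 difference -7.33 ± 0.37, SE, n = 3 against 3, limma adjusted p = 5.39e-05). Pgk1 was at least 4.01-fold lower (-2.30 ± 0.28, limma adjusted p = 4.09e-04) and Gapdh at least 4.30-fold lower (-2.10 ± 0.30, limma adjusted p = 8.03e-04). Hk1 fell by 1.57 ± 0.36 on the log2 scale (limma adjusted p = 0.00711). Aldoa passed as lower with 1 usable microfluidic spot (-1.79 ± 0.41, n = 1 against 3, limma adjusted p = 0.0128), which is assumed to vary as the control arrays do. With the 2 spots marked bad kept, its difference was -1.31 (limma adjusted p = 0.00957). Hk2 was at least 32.9-fold higher (5.05 ± 0.45, limma adjusted p = 1.25e-04), in 3 of 3 microfluidic arrays, with control above background on 1 of 3. It entered the test only through the microfluidic arrays, where it was bright. The bound holds for the main settings, and the fitted difference ran from 3.75 to 6.16 over the 16 settings run.

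Eno1 did not pass (-2.89 ± 1.12, limma adjusted p = 0.0567), its microfluidic arrays being far apart. Eno2 had 1 usable microfluidic spot and did not pass (-0.73 ± 0.46, limma adjusted p = 0.219), and Ldha, saturated in both groups, has no fold (limma adjusted p = 0.976). Pfkfb4 was not tested, since neither group was above background throughout. With arrays centred on their medians in place of quantile normalization, Gapdh (-0.80), Aldoa (-0.12) and Hk1 (-0.30) no longer passed (limma adjusted p = 0.0894, 0.83 and 0.60). Ldha then passed as higher (1.38, limma adjusted p = 0.00796). Pkm, Pgk1 and Hk2 passed under all 16 settings run.

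The same question was put to the tube reaction. Of 9 genes tested against control, 5 passed as lower (Hk1, Eno1, Aldoa, Gapdh and Pgk1) and Pfkfb4 as higher, where 30.2% of 13796 probes passed, 23.8% as lower and 6.41% as higher. The fitted median was -2.67 over the genes, or -0.84 with bounded differences at their bound and those with no fold at 0, and -0.80 over all probes tested as fitted. Hk1 was at least 3.48-fold lower (-5.71 ± 0.87, limma adjusted p = 0.00316), Eno1 at least 4.14-fold (-5.09 ± 0.69, limma adjusted p = 0.00203) and Aldoa at least 3.81-fold (-3.52, limma adjusted p = 0.00171), each above background on 1 of 3 conventional arrays. Pfkfb4 was at least 32.7-fold higher (5.75 ± 0.52, limma adjusted p = 6.89e-04), in 3 of 3 arrays. It entered the test only through the conventional arrays, where it was bright. The bound holds for the main settings, and the fitted difference ran from 3.96 to 6.07 over the 16 settings run.

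Gapdh, above background on 1 of 3 conventional arrays, was at least 2.77-fold lower (-2.67 ± 0.56, limma adjusted p = 0.0101). Pgk1 passed as lower in the fit (-2.11 ± 0.51, limma adjusted p = 0.0175), but it was above background on no conventional array and its bound was under 1, so no size is given. Both calls were lost on leaving out any of the 3 control arrays, with adjusted p from 0.0519 to 0.0539 for Gapdh and 0.0684 to 0.0962 for Pgk1. Pkm did not pass (-4.63 ± 1.56, limma adjusted p = 0.056), conventional 1 being bright, and passed without that array (-6.74, limma adjusted p = 0.00298). Eno2 (-2.05, limma adjusted p = 0.185) and Ldha (-0.74, limma adjusted p = 0.449) did not pass, and Hk2 was not tested.

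**Figure D2:**
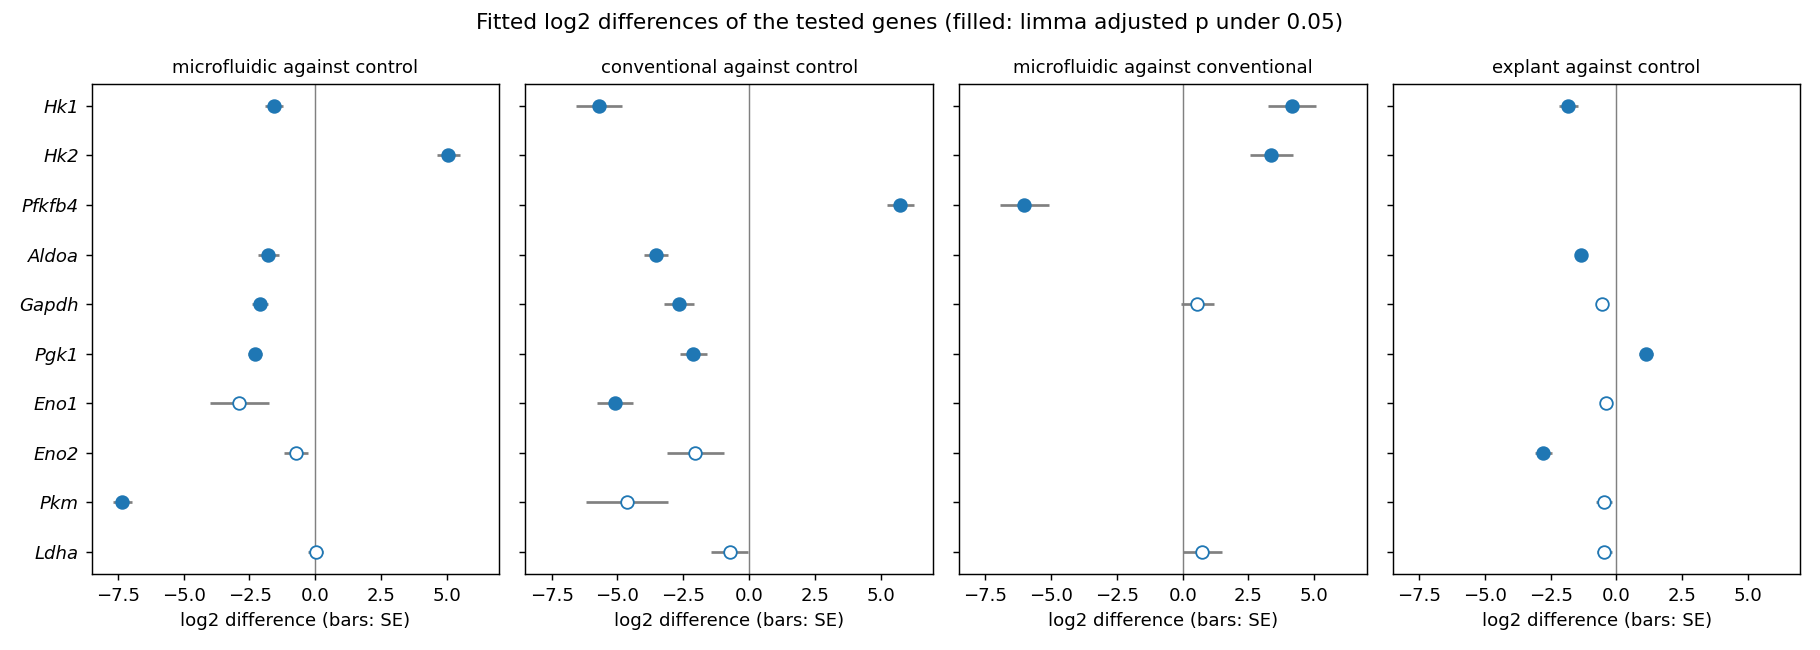
Fitted log2 differences (points) with their standard errors (bars) for the tested genes in 4 comparisons of 3 arrays against 3 (1 usable microfluidic spot for Aldoa, Eno2 and Pfkfb4); filled points have a limma adjusted p under 0.05, and dim or saturated values enter as read, so several points are not measured sizes. Hk2 lies at 5.05 and Pkm at -7.33 in microfluidic against control, and Pfkfb4 at 5.75 in conventional against control.

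Mixer and tube were then set against each other at the same input. Few genes could be tested, because only probes above background on all arrays of a group entered: 5 of 10, where 27.6% of 6950 probes passed, 23.0% as higher and 4.62% as lower in the mixer. Hk1 and Hk2 were higher in the mixer and Pfkfb4 lower. Hk1, above background on 1 of 3 conventional arrays, was at least 1.17-fold higher (4.14 ± 0.92, limma adjusted p = 0.0135), and Hk2, above background on none of them, was at least 3.27-fold higher (3.36 ± 0.82, limma adjusted p = 0.0184). Pfkfb4 passed as lower (-6.02 ± 0.93, n = 1 against 3, limma adjusted p = 0.0064) with 1 usable mixer spot, which was not above background and is assumed to vary as the conventional arrays do. With the spots marked bad kept its difference was -5.88 (limma adjusted p = 4.62e-04).

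Gapdh (0.56 ± 0.64, limma adjusted p = 0.531) and Ldha (0.75 ± 0.74, limma adjusted p = 0.47) did not pass. A gene above background in 1 group only entered through the group where it was bright, and few genes were tested, so no median is given here. The Hk2 call was lost without any of the 3 microfluidic arrays (limma adjusted p = 0.054 to 0.0925), and that of Hk1 without microfluidic 1 (limma adjusted p = 0.0661) or microfluidic 2 (limma adjusted p = 0.0579). Without microfluidic 1, the array with the usable spot, Pfkfb4 could not be tested.

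The explant arrays were set against control as unamplified embryonic and adult brain RNA, which differ in age, strain, input, labelling, print series and scan session together. Eno2, Aldoa and Hk1 were lower and Pgk1 higher in the explant among 8 genes tested, where 42.0% of 13829 probes passed, 26.8% as lower and 15.2% as higher. The median was -0.51 over the genes and -0.30 over all probes. Eno2 was at least 2.59-fold lower (-2.77 ± 0.32, limma adjusted p = 6.07e-04), Aldoa at least 2.54-fold lower (-1.35 ± 0.22, limma adjusted p = 0.0031), and Hk1, above background on 2 of 3 explant arrays, at least 3.53-fold lower (-1.82 ± 0.35, limma adjusted p = 0.00581).

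Pgk1 rose by 1.12 ± 0.28 on the log2 scale relative to the other probes (limma adjusted p = 0.0152), although its net readings were lower on all 3 explant arrays. Its call was lost with median centring (0.47, limma adjusted p = 0.142), without control 1 (0.97, limma adjusted p = 0.0656) and with a fit over all 5 groups (limma adjusted p = 0.15). That fit also lost Aldoa (limma adjusted p = 0.1) and Hk1 (limma adjusted p = 0.166). Gapdh (-0.54, limma adjusted p = 0.0756), Pkm (-0.47, limma adjusted p = 0.246), Eno1 (-0.39, limma adjusted p = 0.199) and Ldha (-0.45, limma adjusted p = 0.244) did not pass, and Hk2 and Pfkfb4 were not tested.

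Markers of several cell types differed between these groups as well. The net readings of 4 oligodendrocyte markers summed to 162391 to 169976 on control arrays and -2350 to 1724.5 on explant arrays, with 4 of 4 above background on all control arrays and 0 of 4 on any explant array. Those of 5 astrocyte markers summed to 91158.5 to 164432 and 7395 to 14796.5, and those of 4 microglial markers to 51483 to 57955 and 9965.5 to 15452. The sum of 5 neuronal markers was 134846 to 162904 on control and 49293.5 to 81494.5 on explant arrays: the synaptic Snap25 read 63906 to 64161.5 against 2874 to 6852 and Syt1 45968.5 to 64310 against 1498 to 3397.5, while Dcx, of immature neurons, read 7359 to 9346 (above background on 2 of 3 arrays) against 21981 to 36667. Other lists did not separate the groups. The sums of 6 ganglionic eminence markers were 103452 to 153568 on control and 98791.5 to 142456 on explant arrays. Those of 4 progenitor markers were 30212 to 37350 and 14326 to 33812.5, and those of 4 erythroid markers 12836.5 to 17768 and 12474 to 22248.5. The part of these cell types in the differences of glycolytic genes was not tested. In such bulk samples, fewer cells of a type and less RNA per cell cannot be told apart.

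Promoter sequences are shown for Pgk1 and Eno2, which passed in opposite directions in the explant. They are RefSeq sequences on GRCm38.p6, with the gene's strand 5′ to 3′, 250 bases before to 50 after a start, chrX:106186850-106187149 on the plus strand for Pgk1 and chr6:124769624-124769923 on the minus strand for Eno2. Capitals mark ACGTG on either strand (CACGT when read on the strand shown; the matches can overlap as CACGTG), the core bound by hypoxia-inducible factors, which are known regulators of many glycolytic genes.

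Pgk1: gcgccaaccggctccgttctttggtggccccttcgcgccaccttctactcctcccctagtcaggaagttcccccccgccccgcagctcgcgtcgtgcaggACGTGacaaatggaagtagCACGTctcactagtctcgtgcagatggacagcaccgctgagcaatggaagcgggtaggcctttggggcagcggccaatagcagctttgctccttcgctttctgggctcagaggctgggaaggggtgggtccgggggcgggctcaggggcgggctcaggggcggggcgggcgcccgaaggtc

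Eno2: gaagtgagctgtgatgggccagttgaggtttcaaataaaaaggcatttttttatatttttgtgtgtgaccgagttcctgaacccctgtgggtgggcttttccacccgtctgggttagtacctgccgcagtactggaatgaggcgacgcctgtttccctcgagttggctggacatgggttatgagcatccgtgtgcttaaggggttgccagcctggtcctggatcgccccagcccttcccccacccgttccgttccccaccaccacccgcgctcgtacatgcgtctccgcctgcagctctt

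The Pgk1 window held 2 matches and the Eno2 window 0. Of the other genes that passed as lower in the explant, Hk1 had windows with 0 and 2 matches, and Aldoa windows with 0, 1 and 1. A link of matches to direction was not tested. Of all 32851 windows listed, 19.6% held at least 1 match, and over the 17 windows of the 10 genes 8 did, belonging to 7 genes. A match is a run of letters, not a binding site. No binding was measured in this series.

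The single cells are described without a test, since no label ties a cell to an animal. Set beside the explant, all 4 cells were higher in Hk2, at least 18.0-fold in mean normalized intensity, and in Eno2, at least 1.94-fold; no explant array was above background for either. On the normalized scale all 4 were lower in Gapdh (a difference of -1.23 in mean log2 intensity), in Eno1 (-3.06) and in Pgk1, at least 6.62-fold, with no cell above background for Pgk1. In net readings the Gapdh medians of cells 1 and 2, at 30730 and 56155.5, lay above the explant medians of 12030 to 16553.5. Those of cells 3 and 4, at 10246 and 4485, lay below them. Aldoa (0.07), Ldha (-0.48) and Hk1 (0.13) overlapped. Pkm was at least 15.7-fold lower in the 3 cells measured, being above background in 0 of 3 cells and 3 of 3 explant arrays, and Pfkfb4 was not above background in either.

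Of 5039 probes measured on all 7 arrays and detected throughout at least 1 of the groups, 38.8% had all cells higher and 31.8% all cells lower, so that a lack of overlap was frequent. The median difference over the 10 genes was -0.71 with dim and saturated values as read. It was 0.38 over 6009 probes detected throughout at least 1 of the groups, a filter that was not applied to the 10 genes. Median centring moved the genes' median to 0.40. Of 4 erythroid markers, Hba-a1 was above background on 3 of 3 explant arrays and in the 1 cell where its spot was usable, Hbb-y on 3 and in 3 of 4 cells, Hbb-bh1 on 1 and in 2 of 4, and Alas2 on 0 and in 1 of 3 measured. Their summed readings were 12474 to 22248.5 on explant arrays and 4383 to 13413.5 in cells, over usable spots. Of 4 progenitor markers, Mki67 was above background on 3 explant arrays and in 0 of 4 cells, Vim on 2 and in 0 of 4, Hes5 on 2 and in 0 of 3 measured, and Nes on 2 and in 3 of 4, with sums of 14326 to 33812.5 and 3010.5 to 4587.5. The part of other cell types in these differences was not tested.

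Beside the microfluidic arrays, which share the mixer and the number of cycles but hold adult RNA, the 6 genes measured on all 7 arrays (Gapdh, Eno1, Pgk1, Ldha, Hk1 and Hk2) all overlapped, where 4.65% of probes had all cells higher and 10.6% all cells lower. Hk2 was above background in all 7 of these libraries, and Pgk1 in none. Pkm was above background in none of the 3 cells and 3 microfluidic arrays measured. Hk2 was saturated in all 4 cells and Ldha on all 3 microfluidic arrays, so an overlap there does not show equal levels.

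Among the genes above background in all 4 cells, the range over cells on the normalized log2 scale was 3.14 for Hk1, 1.83 for Aldoa, 1.62 for Eno1, 1.40 for Gapdh and 1.34 for Eno2. For Ldha it was 3.19, with 2 cells saturated, and for Hk2, saturated in all, it cannot be read. Cell 4, scanned in a session of its own, was the lowest for Ldha and the highest for Hk1. Over the 3 microfluidic arrays, which hold the same kind of RNA, the range was 0.57 for Ldha and 1.14 for Hk1, and reached 4.83 for Eno1.

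**Figure D3:**
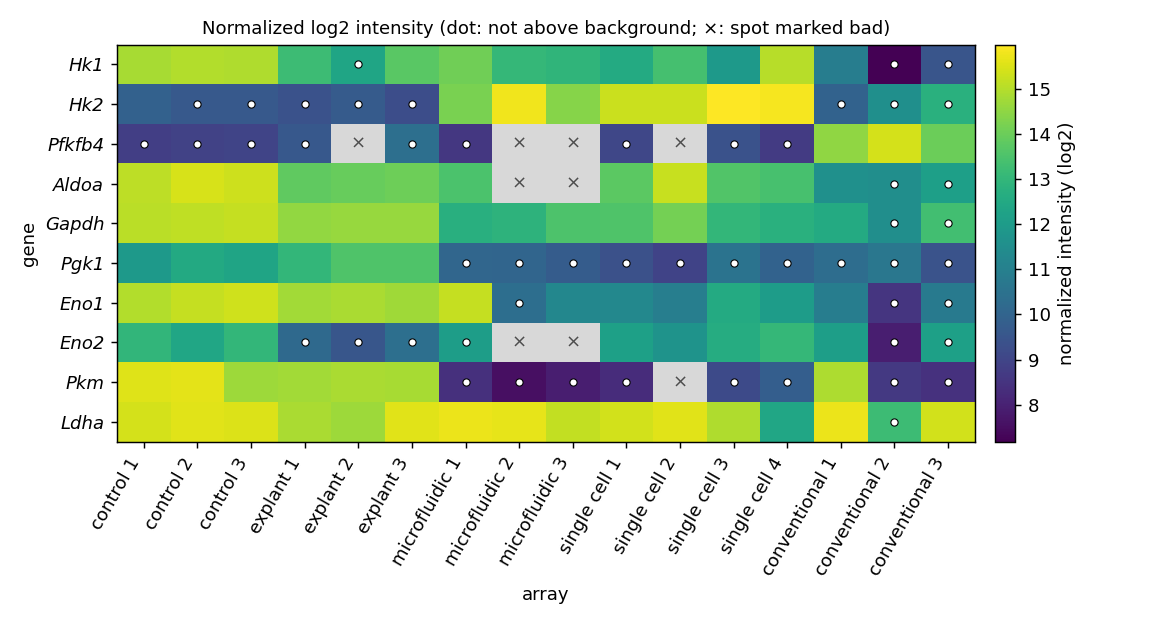
Normalized log2 intensity (colour) of the 10 genes (rows) on the 16 arrays (columns); dots mark values not above background and grey cells with × spots marked bad. In the single-cell and microfluidic columns Hk2 is above background and Pgk1 and Pkm, where measured, are not, and cell 4 is low for Ldha.

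In the order of group means on the normalized scale, neighbours often overlapped. Gapdh ran control, explant, single cell, microfluidic and conventional, with means of 15.13, 14.59, 13.37, 13.03 and 12.47, and the last 3 overlapped with their neighbours. Hk2 ran single cell (15.59), microfluidic (14.79), conventional (11.43), control (9.73) and explant (9.45), with overlap in the first pair and the last. It was above background on 0 of 3 conventional, 1 of 3 control and 0 of 3 explant arrays, so the order of these groups does not measure its level. Its net readings were lower on conventional (116.5 to 1399.5) than on control arrays (1579.5 to 2565). For Ldha, from 15.51 in the microfluidic group to 14.57 in the cells, every neighbouring pair overlapped. For Pfkfb4 the conventional mean of 14.64 stood 4.64 above the next group.

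Over the arrays where both were measured, the 45 pairs of genes had a Pearson correlation of normalized values from -0.90 to 0.84, with a median of 0.25, and 17 pairs were below 0. The highest was Gapdh with Aldoa (0.84, 14 arrays) and the lowest Hk1 with Pfkfb4 (-0.90, 12 arrays). These points fall into the 5 groups and share each array's amplification and normalization, so the values are descriptions. The genes most like the members' median over 16 arrays were Ambp (r = 0.94), Calr4 (0.93), Pip4p1 (0.93), Olfr1156 (0.92) and Olfr1126 (0.92), of 4933 probes compared. Those most like Pfkfb4 over 12 arrays were Plp2 (0.98), Prlr (0.98) and Txndc11 (0.98), of 5841 probes.

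The rest of the pathway was examined by lists. Of 19 other glycolytic enzymes, 12 were tested in microfluidic against control, with 8 lower and 1 higher (median -1.74), against 35.1% lower and 23.9% higher over all probes. In conventional against control 11 were tested, with 7 lower and 0 higher at the adjusted threshold in limma (median -1.89), against 23.8% and 6.41%. In explant against control 11 were tested, with 2 lower and 1 higher (median -0.33), against 26.8% and 15.2%, so that the share lower was under the background. These medians are as fitted. With bounded differences at their bound and those with no fold at 0, they were -1.49 in the mixer, 0 in the tube and -0.21 in the explant. Each gene was counted by its brightest probe. Pfkp was lower in the mixer by that probe, but its second probe passed as higher there (1.14 ± 0.33, limma adjusted p = 0.0202). The second Pfkp probe also passed as higher in the tube (2.22 ± 0.53, limma adjusted p = 0.0166), where the brightest did not pass. Among the genes with the smallest p, Pfkm, the muscle-type phosphofructokinase, was at least 3.88-fold lower in the mixer (-2.51 ± 0.30, limma adjusted p = 3.68e-04). Eno3, the muscle enolase, was at least 10.6-fold lower in the explant (-4.19 ± 0.30, limma adjusted p = 9.75e-05). In the tube, with 2 usable spots, it was at least 1.53-fold lower (-6.26 ± 0.58, limma adjusted p = 9.01e-04), and Gpi1, which turns glucose 6-phosphate into fructose 6-phosphate, at least 1.14-fold (-3.15 ± 0.60, limma adjusted p = 0.00709).

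Among 4 regulators, Pfkfb1, a relative of Pfkfb4, was at least 6.62-fold higher in the mixer than in control (3.52 ± 0.39, limma adjusted p = 2.75e-04), and the 2 others tested were lower. Over all probes tested 23.9% passed as higher and 35.1% as lower in the mixer. In the explant Pfkfb3 was at least 3.03-fold lower (-1.77 ± 0.22, limma adjusted p = 8.40e-04), and Tigar was at least 1.37-fold lower (limma adjusted p = 0.00314). Second probes of Pfkfb3 (-0.60, limma adjusted p = 0.0949) and Tigar (-1.05, limma adjusted p = 0.109) did not pass there. Of 5 carriers, the lactate carrier Slc16a7 was at least 19.9-fold lower in the mixer (-4.32 ± 0.35, limma adjusted p = 9.66e-05) and at least 2.29-fold lower in the tube (-2.61 ± 0.49, limma adjusted p = 0.00642). It was 1 of 2 carriers that passed as lower among 4 tested in the mixer. In the tube it was the only carrier to pass of 4 tested, near the 23.8% of all probes that passed as lower there. The neuronal glucose carrier Slc2a3 rose by 1.77 ± 0.26 in the explant (limma adjusted p = 0.00185), where 2 of 4 carriers tested were lower. Over all probes tested 15.2% passed as higher and 26.8% as lower in the explant.

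Of 10 genes for pyruvate entry to mitochondria, 6 were lower and 0 higher in the mixer against control in limma (median -2.31), beside 35.1% lower over all probes. In the tube 3 were lower and 0 higher (median -1.32), near the 23.8% over all probes, and in the explant 4 were lower and 1 higher (median -0.16), beside 26.8%. These medians are as fitted. With bounded differences at their bound and those with no fold at 0, they were -1.47 in the mixer, 0 in the tube and -0.03 in the explant. Pdk2, a kinase that restrains pyruvate dehydrogenase, was at least 12.4-fold lower in the mixer (-4.39 ± 0.48, limma adjusted p = 2.74e-04). Mpc2, a subunit of the mitochondrial pyruvate carrier, was at least 3.48-fold lower in the mixer than in control (limma adjusted p = 2.86e-04) and at least 11.1-fold lower in the mixer than in the tube (limma adjusted p = 0.00655).

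**Figure D4:**
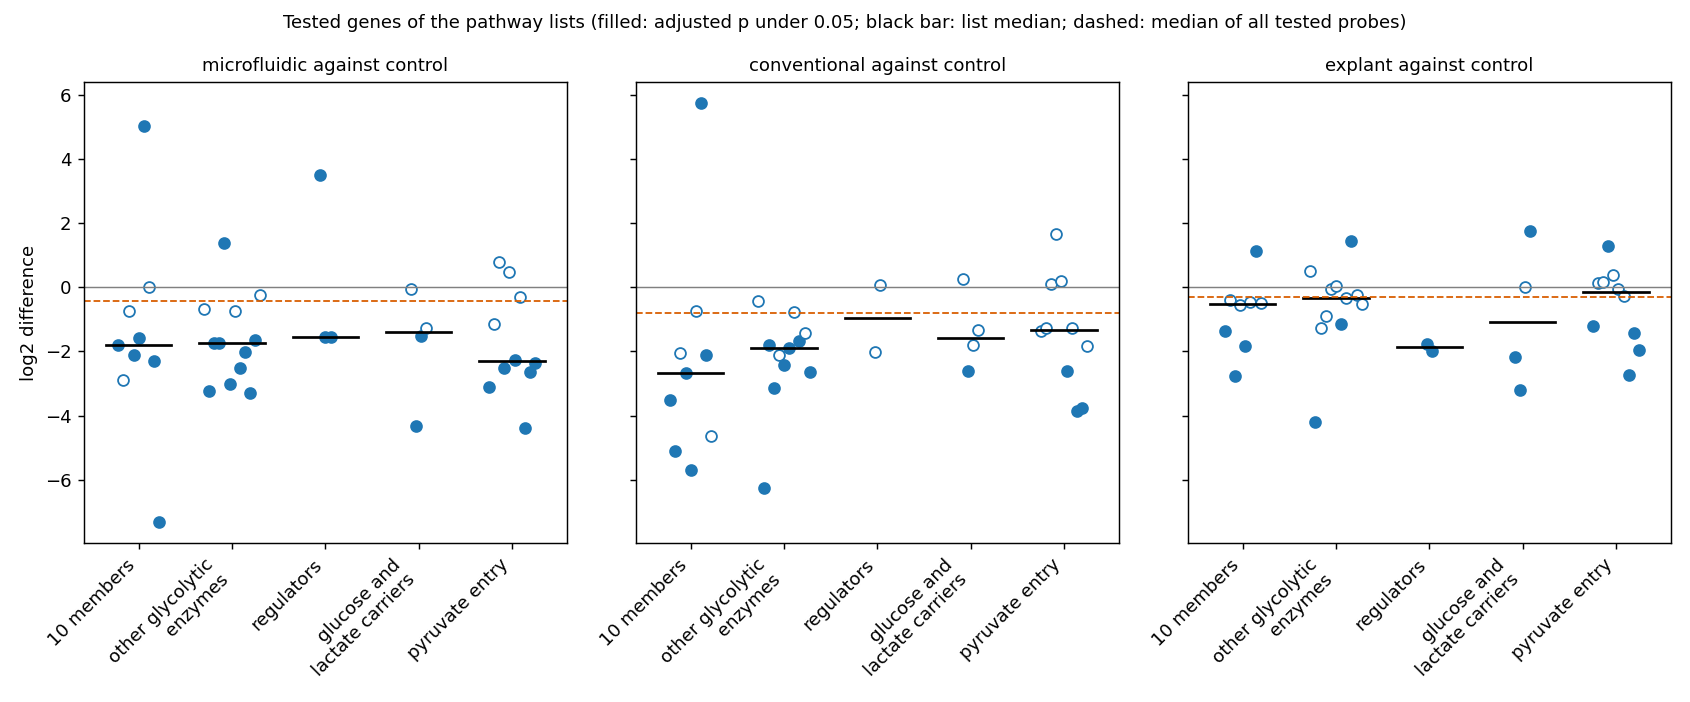
Log2 differences of the tested genes in 5 lists for 3 comparisons against control; each point is a gene by its brightest probe, filled where limma adjusted p was under 0.05, black bars are list medians, and the dashed line is the median of all tested probes. Values are as fitted. The medians of the tested members and of the other enzymes lie at -1.79 and -1.74 in the mixer, against -0.43 for all probes. The member median is the value of Aldoa, which had 1 usable microfluidic spot.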

How the data were processed

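The scanner files hold raw, deposited foreground and background intensity of each spot, per the file headers, and were written by Mapix 2.3.0 (control), 2.2.4 (microfluidic), 2.4.4 (cells) and 2.5.1 (explant). The signal values deposited for the whole series lay within 10% of a constant times foreground over local background for most spots of each array, and were used as an alternative. Members and gene lists were chosen with earlier results of these data known. Bad-marked spots were dropped unless saturated, and the Gapdh spots were summarised by their median. Intensities were corrected by normexp (offset 50), quantile-normalized over 16 arrays in limma 3.58.1 (R 4.3.3) and taken to log2. Where a gene has several probes, the brightest over all arrays was used.

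Pairs of groups were fitted by lmFit and eBayes over probes above background on all arrays of at least 1 group. Conventional 1, with no background SD, was judged against the 95th percentile of 339 blank spots. The test was tried on simulated data. Arrays carry no read depth, and their number limits precision. Same-numbered arrays were not paired: their deviations from group means correlated at -0.18 to 0.09. Pathway genes are named by smallest p, up to 6 a comparison. Alternatives were the background correction, the normalization, the deposited values, the dim-probe filter, a fit over 5 groups, a replicate block, all probes, the detection limit and each array left out. Added after seeing the data were bad spots kept, a filled background SD, and normalization before the Gapdh median.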

Additional observations from a re-analysis of the deposited data

How the results depend on the processing

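With median centring, in microfluidic against control 2 genes were then higher and 2 lower, in explant against control 0 higher and 5 lower, and the median difference of the cells from the explant was 0.396. In explant against control 5 genes were lower without background correction, 2 were higher without the filter on dim probes, and 0 were higher and 1 lower in a fit over all 5 groups. With 1 array left out, conventional against control gave 3 to 6 lower genes, microfluidic against conventional 0 to 2 higher and 0 to 1 lower, and explant against control 0 to 1 higher and 3 to 4 lower. The cells' median difference ranged from -0.907 to -0.370 beside the explant and from 0.0861 to 0.379 beside the microfluidic arrays. The genes above background on all conventional arrays numbered 4 by blank spots and 0 at 3 background SD. The sign of Ldha reversed without background correction in microfluidic against control (-0.176). With 1 array left out its difference ranged from -0.0971 to 0.190 there, from -1.21 to 0.0400 in conventional against control and from -0.0293 to 1.22 in microfluidic against conventional, and passed in none of these fits. With the replicate number as a block, Aldoa no longer passed in microfluidic against control (-1.62, limma adjusted p = 0.106) while Eno1 did (limma adjusted p = 0.042), and Pkm passed in conventional against control (limma adjusted p = 0.00618); the arrays share only a number. Of the values for single genes under the alternatives listed, 326 kept direction and side of the threshold, 15 passed newly, 22 no longer passed and 6 reversed; all 93 under those added after seeing the data kept both. The cause of these changes was not tested. Saturation hides differences among the brightest readings, and probes that are not above background give bounds only; no probe sequence was used here, so cross-hybridisation between isoforms or to processed copies of Gapdh was not tested.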
